A study of Mus musculus with 68 samples.

Results

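The genes described here were Zfp57, a zinc finger protein that keeps parental methylation marks in place at imprinted loci, and 9 imprinted genes that act on growth or lie beside genes that do. The imprinted genes were H19, Igf2, Cdkn1c, Dlk1, Meg3, Peg3, Mest, Grb10 and Plagl1. They were found by gene symbol, and all 10 were listed in both sets of tables, out of 13197 genes in the founder strains, 12803 in the F1 crosses and 13378 in either. Zfp57 was chosen because its RNA was seen to rise in the founder strains after tunicamycin (TM), so that rise is described below without a test. The 9 imprinted genes were chosen by name, with earlier results of these data known.

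RNA was measured by RNA-seq in 68 libraries of primary mouse embryonic fibroblasts (MEFs). The founder set held 18 control and 22 TM libraries from 8 inbred strains, 129S1Sv/ImJ (129), A/J (A), C57BL/6J (B6), CAST/EiJ (CAST), NOD/ShiLtJ (NOD), NZO/H1LtJ (NZO), PWK/PhJ (PWK) and WSB/EiJ (WSB), which carried no engineered allele. The F1 set held 14 control and 14 TM libraries from crosses of B6 mothers to 129, CAST, NOD, NZO or WSB fathers, named x129, xCAST, xNOD, xNZO and xWSB. Cells at an early passage were kept for 4 h with 2 ug/ml of TM or with 0.1% DMSO as control, and each group held 2 or 3 libraries. Each genotype was represented by MEFs pooled from female embryos of 1 litter, so genotype and MEF preparation cannot be told apart, and since the replicates of a genotype shared that source, p-values measure only the spread between libraries, which may be technical. Because every cross had a B6 mother and no reciprocal cross was analysed, the parent that supplied an allele and the strain it came from cannot be told apart.

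TM blocks N-linked glycosylation, so that unfolded proteins build up in the endoplasmic reticulum (ER) and the unfolded protein response raises chaperones, folding enzymes and degradation factors. An imprinted gene is expressed from the allele of 1 parent only, and the choice is read from DNA methylation laid down in the germ line. ZFP57 binds a methylated hexamer within imprinting control regions and recruits TRIM28, which protects that methylation. Igf2, Dlk1, Peg3, Mest and Plagl1 are in most fetal tissues expressed from the paternal allele, and H19, Meg3, Cdkn1c and Grb10 from the maternal allele. The tables gave 1 value per gene and did not separate the alleles.

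The values, called levels here, are reads per gene scaled to the size of the library, and they were not divided by gene length. Levels are therefore compared between libraries for 1 gene and not between genes, apart from a rough contrast of summed cell type markers. Since the 2 sets were normalised separately, levels are compared only within a set. Reads per library ranged from 7091923 to 21530282 (median 11927033) in the founders and from 6442976 to 29528457 (median 13025117) in the F1 crosses. The 5 genes set as a check of the treatment, Hspa5, Ddit3, Herpud1, Xbp1 and Atf4, rose in both sets, as shown by Hspa5, an ER chaperone, at 7.08 fold in the founders and 7.48 fold in the crosses. In 11 libraries, 7 founder and 4 F1, long transcripts were low against short ones. Results of the 10 genes that rest on these libraries are given with and without them. Changes of other genes are given over all libraries only. MEF cultures hold several mesenchymal cell types, and in RNA from whole cultures fewer cells of a type and less RNA per cell cannot be told apart. The summed level of 7 fibroblast markers was high in every library, from 11785 to 44959 in the founders and from 10488 to 24821 in the crosses. Col1a1, Col1a2 and Vim made up most of it, while in the founders Pdgfra ran from 4.83 to 29.5 and Thy1 was as low as 1.38. The sums of myeloid and of endothelial markers were at most 20.6.

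Zfp57 (ENSMUSG00000036036) lies at chr17:37001163-37010635 on the plus strand of GRCm38. Among the RefSeq promoters of the same genome (GRCm38.p6, 250 bases before to 50 after each start), 8 of the 10 genes had an entry, and H19 and Cdkn1c did not. Of 3 Zfp57 promoters, 1, at chr17:37002275-37002574, held the ER stress response element, CCAAT and CCACG with 9 bases of any kind between them, the motif through which NF-Y together with ATF6 or XBP1 acts on ER chaperone genes. The match was on the opposite strand, 33 to 15 bases before the start. This motif, searched on both strands, was in 39 of 32851 promoters (0.119%), or in 37 of 27025 genes (0.137%). The Zfp57 promoter is shown beside those of Derl3, an ER degradation factor whose motif was also on the opposite strand (chr10:75893148-75893447), and of Hspa5, whose motif was on the same strand (chr2:34771840-34772139). Capitals mark the motif, and all are written 5′ to 3′ on the strand of the gene, here plus.
Zfp57: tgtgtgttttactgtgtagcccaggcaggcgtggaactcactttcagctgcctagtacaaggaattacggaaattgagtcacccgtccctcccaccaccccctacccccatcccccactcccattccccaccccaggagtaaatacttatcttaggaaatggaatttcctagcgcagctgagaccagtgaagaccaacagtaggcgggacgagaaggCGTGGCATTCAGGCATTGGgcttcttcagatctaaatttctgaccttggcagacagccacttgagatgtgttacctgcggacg
Derl3: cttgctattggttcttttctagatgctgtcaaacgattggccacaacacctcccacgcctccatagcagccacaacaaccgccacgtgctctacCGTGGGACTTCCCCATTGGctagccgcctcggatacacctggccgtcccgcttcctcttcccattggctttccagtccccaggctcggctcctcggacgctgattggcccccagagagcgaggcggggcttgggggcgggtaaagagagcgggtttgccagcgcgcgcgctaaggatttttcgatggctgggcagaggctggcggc
Hspa5: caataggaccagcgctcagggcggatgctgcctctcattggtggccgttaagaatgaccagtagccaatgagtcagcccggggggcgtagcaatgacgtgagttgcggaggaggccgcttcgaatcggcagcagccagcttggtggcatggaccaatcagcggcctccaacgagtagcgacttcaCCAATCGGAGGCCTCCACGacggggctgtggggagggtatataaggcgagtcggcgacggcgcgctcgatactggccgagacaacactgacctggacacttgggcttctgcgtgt

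The other 36 genes with this motif in a promoter were looked up after the motif had been found in Zfp57. In the founders 17 of them passed the filter on low levels, and 10 rose and 0 fell after TM, where 6.04% of all genes rose and 5.41% fell (limma, with a Benjamini-Hochberg adjusted p under 0.01 and 1.5 fold or more in size). Their median change was 0.81 on the log2 scale, against −0.04 over all genes. In the crosses 11 of 15 rose, against a background of 4.95%, with a median of 0.88. Derl3 rose 18.3 fold in the founders and 10.9 fold in the crosses, and Calr, a lectin chaperone, rose 1.75 and 1.81 fold. Adcy3, an adenylyl cyclase, fell by less than 1.5 fold and so was not called, at −0.38 (adjusted p = 8.83e-07) and −0.40 (adjusted p = 5.55e-06) on the log2 scale. Acacb, also not called, stood at −0.66 (adjusted p = 0.0140) and −0.35 (adjusted p = 0.359). A match is a description of letters in this window and not evidence of binding. No Zfp57 promoter held the other elements searched on both strands, which were TGACGTGG (in 0.676% of promoters), ATTGG and CCACG with 1 base of any kind between them (0.0365%) and TGATGNAAN (3.95%).

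Zfp57 was low in control cells of every founder strain and higher in every TM library of the same strain. In B6 its level was 18.2 and 18.0 in the control libraries and 48.6 and 51.9 in the TM libraries. In PWK it was 18.5, 18.4 and 15.5 without TM and 72.6, 63.3 and 58.5 with it. No TM library reached down to the control range of its strain, in either of these strains or in the other 6.

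The ratio of mean levels, TM over control, was highest in WSB at 3.95 (control 11.7 and 11.3, TM 42.1, 44.8 and 49.4). It was 3.70 in PWK and 3.64 in A, where the controls were at 21.5, 17.9 and 19.2 and the TM libraries at 66.1, 83.2 and 64.3. The lowest ratio was 2.49, in 129, with controls at 23.2 and 23.2 and TM libraries at 56.4, 58.7 and 58.3. NZO stood at 3.01, B6 at 2.78, NOD at 2.77 and CAST at 2.71. Averaged over the 8 strains the change was 1.62 on the log2 scale (SE 0.04), or 3.08 fold. These founder values chose the gene and are given with no test. Without the 7 founder libraries low in long transcripts the average was 1.63.

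The F1 crosses, which were not used to choose the gene, gave a rise of 1.44 on the log2 scale (SE 0.05), or 2.70 fold, with adjusted p = 9.95e-17 (limma, Benjamini-Hochberg). Without the 4 F1 libraries low in long transcripts it was 1.36 (adjusted p = 6.86e-14), over the 4 crosses that still had both treatments. Every TM library lay above every control library of its cross in 5 of 5 crosses, which held for 4.53% of all F1 genes. In the founders the same was true in 8 of 8 strains and for 4.12% of all genes, from which nothing is read, since these values chose the gene.

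Among the crosses, xNOD had Zfp57 at 14.8, 13.2 and 13.7 in controls and 47.3 and 39.9 with TM, a ratio of 3.13. In xCAST the controls were at 11.7 and 11.8 and the TM libraries at 33.7, 36.0 and 36.0, a ratio of 2.99. In x129 the controls were at 15.4, 13.5 and 15.7 and the TM libraries at 40.5, 39.4 and 39.5. Controls and TM libraries were far apart in each of these. In xNZO the levels were 21.4, 21.0 and 17.8 without TM and 54.3, 56.0 and 51.3 with it, and x129 and xNZO both had a ratio of 2.68. In xWSB the controls were at 15.5, 15.5 and 15.9 and the TM libraries at 39.9, 30.9 and 32.6, a ratio of 2.21 and the lowest of the crosses.

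Tested within each cross alone, the rise was called in x129 (adjusted p = 1.22e-05, 4.88% of genes called up), xCAST (8.02e-05, 2.52%), xNOD (0.00164, 3.69%) and xNZO (4.28e-04, 1.44%). In xWSB it was 1.13 on the log2 scale (SE 0.18) with adjusted p = 0.0378 and was not called, in a cross where 0.185% of genes were called up. Without the 2 xWSB libraries low in long transcripts the xWSB value was 1.01 (adjusted p = 8.62e-05). The test of a difference in TM change between crosses gave adjusted p = 0.782 for Zfp57 and did not call it.

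**Figure D1:**
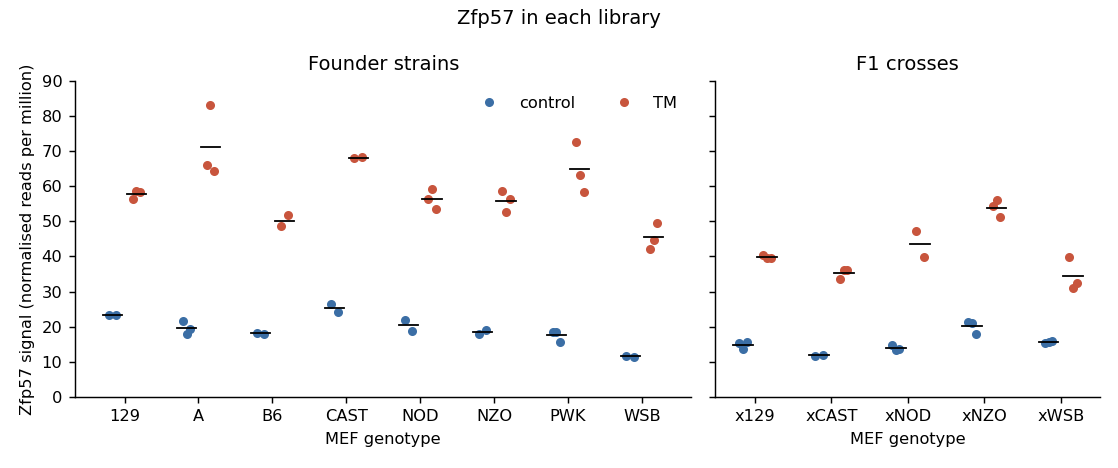
Level of Zfp57 (reads scaled to library size, not divided by length) in each of the 68 libraries, by genotype, with controls in blue, TM in red and bars at the group means. TM libraries lie above the controls of their own genotype in all 13 genotypes, from a ratio of 2.21 in xWSB to 3.95 in WSB.

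The genes whose log2 levels followed Zfp57 most closely across the 40 founder libraries were Derl3 (r = 0.949), Rad52 (0.946), Csf2 (0.941) and Manf (0.940). Derl3 and Manf belong to the ER stress response, Rad52 acts in DNA repair, and Csf2 is a cytokine. Over the 28 F1 libraries the same pairs had r = 0.917, 0.926, 0.706 and 0.949. All these values include the difference between control and TM libraries, which the genes share, and are descriptions.

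Basal levels, those of the control libraries, differed by strain (limma F test, adjusted p = 2.88e-04) and by cross (adjusted p = 0.00215). The F1 controls were not used to choose Zfp57. The founder controls are part of the TM change that chose it, so the strain test is not free of that choice. CAST was highest with a mean of 25.2 ± 1.60 (SD, n = 2) and WSB lowest at 11.5 ± 0.241 (n = 2), a ratio of 2.19. Between them, 129 at 23.2 stood apart from the rest, and the library ranges of NOD (20.3), A (19.5), NZO (18.5), B6 (18.1) and PWK (17.5) each overlapped with the next. In the crosses the order was another one. The cross xNZO was highest at 20.1 ± 1.97 (n = 3), xWSB at 15.6, x129 at 14.9 and xNOD at 13.9 overlapped in sequence, and xCAST was lowest at 11.8 ± 0.0444 (n = 2). CAST thus gave the highest founder level and its cross the lowest F1 level, in sets that were normalised separately.

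None of the 9 imprinted genes was called for a change after TM in either set (adjusted p below 0.01 and at least 1.5 fold), with backgrounds of 6.04% up and 5.41% down in the founders and 4.95% up and 5.54% down in the crosses. At an unadjusted p below 0.05 the limma fit held 7 of 9 in the founders and 4 of 9 in the crosses, 1 in each with a change of 1.5 fold. The share of all genes at that unadjusted limit is not given here, so nothing is read from these counts. The quasi-likelihood test of edgeR called 0 in each set, as limma did. In each set 8 of 9 had a change below 0, as did 54.6% of all genes, with a median of −0.27 in the founders and −0.23 in the crosses, against −0.04 over all genes in both. Setting size aside, 3 of 9 passed adjusted p below 0.01 in the founders and 2 of 9 in the crosses, all downward, where 21.9% and 18.7% of all genes did so.

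Mest, a paternally expressed gene for a protein of the alpha/beta hydrolase fold, named for its expression in mesoderm, had the largest change among those that passed in both sets. Its level in CAST was 14.7 and 17.6 in controls and 10.3 and 11.1 with TM. In NZO it was 12.6 and 10.7 in controls and 6.93, 9.79 and 6.56 with TM. In xCAST it was 9.55 and 10.5 in controls and 4.00, 6.59 and 4.98 with TM. In all 3 genotypes every TM library lay below both controls, as in 5 of the 8 strains and 3 of the 5 crosses. Of all genes, 14.9% did so in more than 4 of the strains and 14.7% in more than 2 of the crosses. The mean change was −0.48 (SE 0.09, adjusted p = 5.21e-05) in the founders and −0.56 (SE 0.13, adjusted p = 0.00121) in the crosses, with ratios of means from 0.548 to 0.994 and from 0.519 to 0.919. The F1 mean includes xWSB, whose ratio of 0.698 rests on 3 to 5 reads in each control library, and it was not refitted without that cross. In PWK the TM libraries, at 3.88, 4.84 and 4.04, lay within the control range of 3.28 to 5.48.

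Meg3, a maternally expressed long noncoding RNA, and Dlk1, a paternally expressed transmembrane protein that holds back fat cell differentiation, lie in the same imprinted cluster on chromosome 12. The mean change of Meg3 was −0.27 in the founders (log2, SE 0.05, adjusted p = 2.97e-05) and −0.23 in the crosses (SE 0.06, adjusted p = 0.00324), and its mean was lower with TM in every strain and every cross. In NZO its level was 532 and 528 in controls and 422, 437 and 388 with TM, which did not overlap. In NOD the control libraries were at 273 and 378 and the TM libraries at 268, 301 and 275, which did. The change of Dlk1 was −0.19 (adjusted p = 0.0107) and −0.24 (adjusted p = 0.0185), short of the threshold in both sets.

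Igf2, the paternally expressed fetal growth factor, and H19, the maternally expressed noncoding RNA beside it, share enhancers and 1 imprinting control region on chromosome 7. The mean change of Igf2 was −0.29 in the founders (log2, SE 0.06, adjusted p = 2.44e-04), with every TM library below every control in 6 of 8 strains, where 14.9% of all genes did so in more than 4. In B6 it was at 237 and 234 in controls and at 169 and 201 with TM, while in CAST the controls at 33.1 and 39.9 enclosed the TM libraries at 33.8 and 36.3. In the crosses its change was −0.16 (SE 0.18, adjusted p = 0.488), with ratios from 0.547 to 1.74. In xCAST the TM libraries (1.74, 2.29 and 4.45) lay at or above the controls (1.74 and 1.51), all at low levels. H19 changed by −0.15 in the founders (adjusted p = 0.0741) and by −0.08 in the crosses (adjusted p = 0.442).

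The growth inhibitors Cdkn1c, a cyclin-dependent kinase inhibitor, and Grb10, an adaptor that dampens insulin and IGF receptor signals, were not called. Cdkn1c had a mean change of −0.19 (adjusted p = 0.207) in the founders and 0.22 (adjusted p = 0.117) in the crosses. Plagl1, a zinc finger factor that acts on other imprinted genes, stood at 0.12 (adjusted p = 0.437) and −0.02 (adjusted p = 0.923), and with the long-transcript index described below as a covariate at 0.17 (adjusted p = 0.0268) and 0.20 (adjusted p = 0.0108). Grb10 changed by −0.46 (SE 0.17, adjusted p = 0.0233) and −0.61 (SE 0.19, adjusted p = 0.0116), and Peg3, a paternally expressed zinc finger protein, by −0.60 (SE 0.23, adjusted p = 0.0309) and −0.81 (SE 0.40, adjusted p = 0.0984). Both had large changes with large errors.

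**Figure D2:**
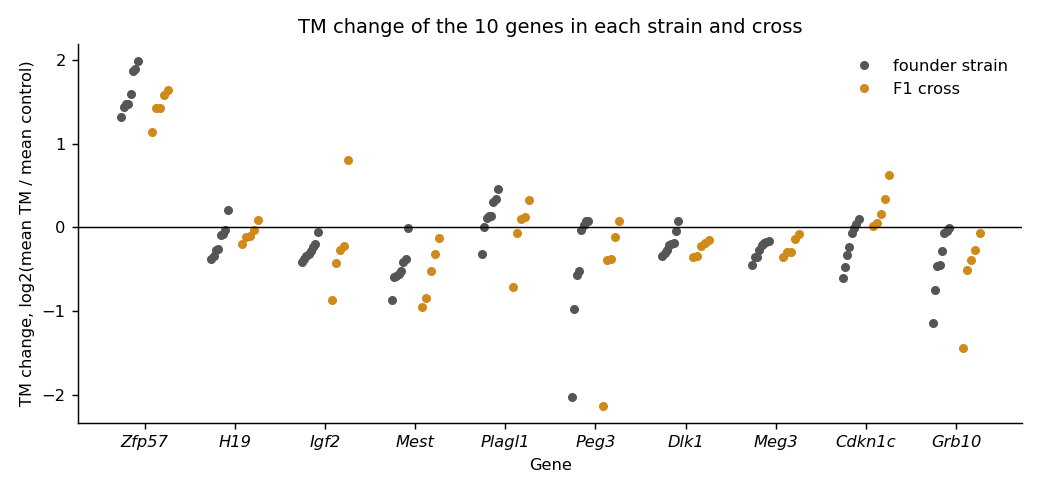
Change after TM of the 10 genes on a log2 scale, as the ratio of mean TM level to mean control level, with 1 point for each of the 8 founder strains (grey) and 5 crosses (orange), sorted by value within a gene. Zfp57 lies above 1 in every genotype, while Mest, Meg3 and Grb10 lie below 0 in all 13 and the lowest points are those of Peg3 in xNOD and WSB. The xWSB point of Mest rests on 12 control reads, and its PWK point (ratio 0.994) is close to no change.

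No imprinted gene was called for a strain by TM interaction in the founders (0 of 9 by limma at adjusted p below 0.01, 0 at an unadjusted p below 0.05, 0 by edgeR, with 0.174% of all genes called), and 0 of 10 genes were called in the crosses (1, Zfp57, at an unadjusted p below 0.05, 0 by edgeR, with 0.0547% of all genes called). Within single genotypes fitted alone, 2 of the imprinted genes' 116 tests passed, both in WSB, where 4.2% of genes fell (over all 13 genotypes 0.0078% to 4.6% fell and 0.185% to 6.36% rose). Setting size aside, 8 passed adjusted p below 0.01. The others were Grb10, Igf2, Dlk1, Peg3 and Meg3 in B6 and Meg3 in PWK, all downward and under 1.5 fold. The share of all genes by that measure within a genotype is not given here. Peg3 in WSB was at 13.3 and 14.4 in controls and 3.22, 4.44 and 2.58 with TM, a change of −2.02 (adjusted p = 0.00153). Grb10 in WSB was at 343 and 375 in controls and 128, 196 and 165 with TM, a change of −1.16 (adjusted p = 0.00276). The groups were apart in both genes. Without the 2 WSB libraries low in long transcripts 1 TM library was left, assumed to vary like the controls, and the changes were −1.62 (adjusted p = 0.00874) and −0.87 (adjusted p = 0.00588). That library also had a lower index than both controls. With the long-transcript index as a covariate over all 5 WSB libraries the changes were −0.56 (adjusted p = 0.913) and −0.30 (adjusted p = 0.937).

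The long-transcript index of a library was the median deviation (log2, from the mean of the set) of genes whose longest transcript had at least 7000 bases, minus that of genes under 2000 bases, with the 10 genes left out. It ranged from −1.29 to 0.70 in the founders and from −1.11 to 0.54 in the crosses, and the WSB libraries stood at 0.18 and 0.37 in controls and −0.58, −0.33 and −0.65 with TM. Its median was 0.15 in control and 0.10 in TM libraries of the founders, and 0.11 and 0.01 in the crosses. Grb10, Peg3 and Plagl1 moved with it inside the groups of libraries: after subtraction of group means the correlation with the index was 0.93 for Grb10, 0.91 for Peg3 and 0.87 for Plagl1 over 40 founder libraries, and 0.81, 0.85 and 0.93 over 28 F1 libraries. For Zfp57 it was −0.59 and −0.58, for Igf2 0.18 and −0.58, for Meg3 0.29 and −0.28, and for Mest 0.72 and −0.10. For Cdkn1c it was −0.70 and −0.25, for H19 −0.54 and −0.49, and for Dlk1 −0.41 and −0.61. These libraries share depth, handling and genotype, and the correlations are descriptions.

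The library of A with TM, replicate 2, had the lowest index, −1.29, and held Grb10 at 43.0 and Peg3 at 1.15, where the other TM libraries of A held Grb10 at 266 and 244 and Peg3 at 10.5 and 11.0. The first TM library of xNOD, at an index of −1.11, held Grb10 at 31.7 and Peg3 at 0.733, against 127 and 11.5 in the other. Both genes were far below the remaining libraries of their groups in these 2 libraries. Without the low libraries the mean change was −0.30 for Grb10 in the founders (adjusted p = 9.57e-04) and −0.29 in the crosses (adjusted p = 0.0227), and for Peg3 −0.33 (adjusted p = 0.0253) and −0.19 (adjusted p = 0.476). Mest (−0.49 and −0.55) and Meg3 (−0.29 and −0.26) hardly moved, and Igf2 in the crosses went from −0.16 to 0.09, neither of which was called. With the index as a covariate over all libraries the founder changes were −0.39 for Grb10 (adjusted p = 4.77e-06) and −0.51 for Peg3 (adjusted p = 5.43e-05), both under 1.5 fold. The part of the index in these results was not tested beyond these values.

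**Figure D3:**
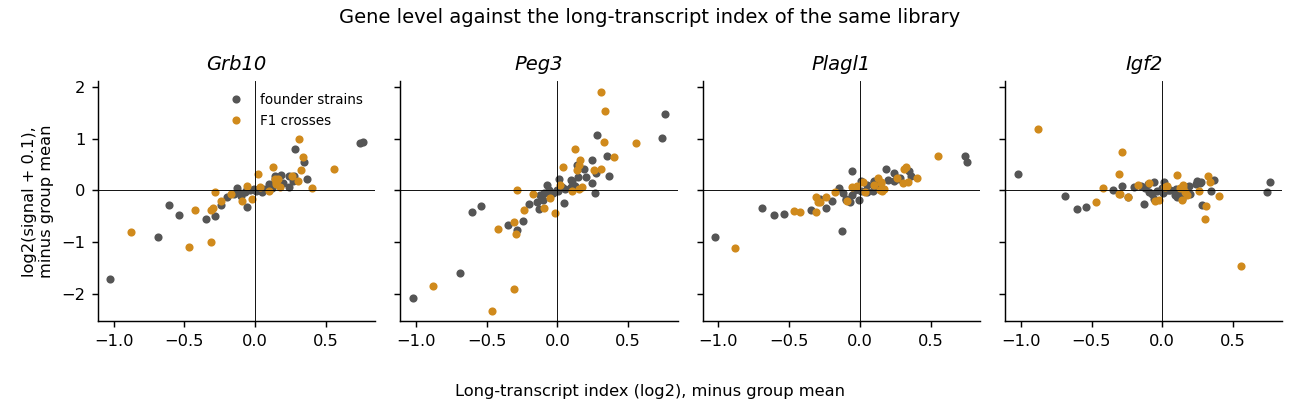
Levels of Grb10, Peg3, Plagl1 and Igf2 (log2, minus the mean of each genotype and treatment group) against the long-transcript index, treated the same way, with 1 point per library. Grb10, Peg3 and Plagl1 rise along the index in both sets (r from 0.81 to 0.93), and Igf2 does not (0.18 and −0.58).

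More of these genes were called between genotypes than between treatments, but the basal test set no limit on size. Without that limit 3 of the 9 imprinted genes passed for TM in the founders and 2 in the crosses, all downward. Of all genes, 21.9% fell and 20.5% rose by that measure in the founders, and 18.7% and 16.9% in the crosses. In control libraries 8 of the 10 genes differed between founder strains, where 35.8% of all genes did, and 9 of 10 differed between crosses, where 21.4% did (limma F test, adjusted p below 0.01). Zfp57 was among them in both sets, and its founder controls are part of the change that chose it. For the 9 imprinted genes alone the counts were 7 and 8. The exceptions were Cdkn1c (adjusted p = 0.316) and Grb10 (0.191) in the founders and Grb10 (0.979) in the crosses. Without the libraries low in long transcripts all 10 differed between strains (background 52.1%), with Cdkn1c at adjusted p = 5.48e-05 and Grb10 at 6.39e-04, and 9 of 10 between crosses (26.5%).

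Igf2 in controls was highest in B6, at 237 and 234, followed by NZO at 153 and 163. The libraries of NOD (132 and 129.8) and 129 (137 and 124) overlapped, as did those of A (69.7, 95.2 and 97.2) and WSB (83.8 and 87.6). PWK (44.8, 42.4 and 39.4) and CAST (33.1 and 39.9) were lowest and also overlapped. The mean of B6, 235, was 6.45 times the mean of CAST, 36.5 (adjusted p = 8.92e-09 over the strains).

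In the crosses the span of Igf2 was wider. Controls of x129 were at 254, 236 and 229, those of xNZO at 182, 186 and 163, and those of xNOD at 67.9, 53.0 and 63.5. Controls of xWSB were at 10.7, 5.71 and 1.63, and those of xCAST at 1.74 and 1.51. The xWSB and xCAST libraries overlapped with each other and lay below all other crosses. Each xCAST control held 30 Igf2 reads and the xWSB controls 13 to 103, while x129 held 4821 to 5535. The mean of x129, 239.5 (n = 3, the libraries given above), was 148 times that of xCAST, 1.62 ± 0.161 (SD, n = 2), with adjusted p = 3.72e-07 over the crosses.

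H19 went the same way as Igf2 in the crosses. In xCAST its controls were at 8.16 and 8.64, and in xWSB at 11.3, 7.64 and 8.91. In xNZO they were at 202, 177 and 151, in x129 at 131, 112 and 123, and in xNOD at 72.7, 61.6 and 68.3. Apart from xWSB and xCAST, no crosses overlapped, and the means differed by 21.0 fold (adjusted p = 1.00e-09). In the founders B6 was highest with 269 and 209, then PWK with 159, 155 and 154, and CAST lowest with 28.8 and 27.0, a span of 8.57 fold (adjusted p = 7.72e-07). The strains between them, NOD, A, NZO, 129 and WSB, overlapped each with the next. PWK was thus second for H19 while it was among the lowest for Igf2.

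Mest was nearly absent from xWSB. Its controls there were at 0.415, 0.344 and 0.376, from 4, 5 and 3 reads, and its TM libraries at 0.455, 0.113 and 0.225, from 7, 2 and 3 reads, too few for a TM test in that cross. In xNZO the controls were at 15.9, 18.3 and 16.2, in xCAST at 9.55 and 10.5, in xNOD at 5.85, 6.56 and 7.08, and in x129 at 3.95, 5.08 and 3.18. No 2 crosses overlapped. The mean of xNZO was 44.4 times that of xWSB, with a 95% exact Poisson interval of 25.4 to 85.9 from the 12 xWSB reads, which covers counting error only (adjusted p = 5.00e-09 over the crosses). WSB was also the lowest founder, at 3.23 and 2.21, and CAST the highest, at 14.7 and 17.6, a span of 5.94 fold in the means (adjusted p = 2.81e-05).

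The promoter of Mest also held the hexamer TGCCGC, the motif that ZFP57 recognises when its CpG is methylated. Searched on both strands it was in 11.6% of promoters and 13.1% of genes, and in 5 of the 7 imprinted genes with a promoter entry, namely Grb10, Igf2, Meg3, Mest and Plagl1, in 6 of the 14 promoters of these 7 genes. The 2 Mest promoters among these 6 start at 30738050 and 30738053 and hold the same matches. No Zfp57 promoter held the hexamer. The Mest promoter (chr6:30737800-30738099) and the Plagl1 promoter (chr10:13090582-13090881), both of GRCm38.p6 and on the plus strand, are shown because Mest held the motif 2 times and the RNA of both was lowest in xWSB. Of the other genes with the hexamer, Meg3 was highest in xWSB controls and Igf2 lowest in xCAST. The group means of Grb10 were even, at 201 to 217 over the crosses, though its xWSB controls ran from 108 to 250.5. A match is a description of letters and not evidence of binding. Capitals mark the hexamer, in both promoters shown on the opposite strand.
Mest: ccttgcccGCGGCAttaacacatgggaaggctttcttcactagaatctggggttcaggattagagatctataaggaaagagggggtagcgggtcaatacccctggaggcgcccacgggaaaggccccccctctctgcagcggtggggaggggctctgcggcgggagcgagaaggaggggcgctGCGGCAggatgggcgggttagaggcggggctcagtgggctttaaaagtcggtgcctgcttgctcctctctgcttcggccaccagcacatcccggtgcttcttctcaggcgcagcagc
Plagl1: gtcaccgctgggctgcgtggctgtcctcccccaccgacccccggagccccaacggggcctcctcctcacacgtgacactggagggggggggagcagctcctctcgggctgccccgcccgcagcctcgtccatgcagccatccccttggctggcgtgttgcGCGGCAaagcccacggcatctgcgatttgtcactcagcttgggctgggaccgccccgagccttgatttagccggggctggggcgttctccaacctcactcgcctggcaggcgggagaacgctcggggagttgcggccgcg

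Cdkn1c spanned 6.68 fold over the crosses (adjusted p = 3.39e-06), with no overlap between any 2 of them, from xNOD at 52.9, 54.1 and 56.5 to xWSB at 10.7, 7.91 and 5.90. Among the founders it spanned 1.94 fold. In A, replicate 1 was at 60.1 and the others at 18.6 and 17.9, and without that library Cdkn1c differed between strains (adjusted p = 3.12e-04). Plagl1 spanned 5.39 fold over the crosses (adjusted p = 0.00150), from xCAST at 45.1 and 47.2 to xWSB at 3.42, 10.3 and 12.0, and 2.72 fold over the founders (adjusted p = 0.00471), with B6 highest at 50.3 and 50.7. The lowest xWSB value was that of a library low in long transcripts, at an index of −0.90, which also held Peg3 at 1.35, against 9.84 and 9.66 in the other 2.

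Dlk1 was highest in B6, with a mean of 165, and lowest in 129, with 24.7, a span of 6.65 fold (adjusted p = 4.09e-08). NOD (141) overlapped with both CAST (141) and NZO (128), which did not overlap with each other, and PWK (72.7), A (42.8) and WSB (34.6) came below them without overlap. In the crosses Dlk1 ran from xNZO at 118 ± 30.9 (SD, n = 3) to xCAST at 31.3, or 3.77 fold (adjusted p = 1.38e-04), so that the cross of the high strain CAST was the lowest. Meg3, its neighbour, spanned 2.28 fold in the founders, from NZO (530.4) to A (233), and 2.12 fold in the crosses, from xWSB (563 ± 94.4, n = 3) to xCAST (266), with adjusted p = 7.04e-05 and 5.55e-04. The cross xWSB thus held the highest Meg3 beside the lowest Mest, Cdkn1c and Plagl1.

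Peg3 spanned 3.75 fold over the founders, from NZO (25.3) to CAST (6.77), with adjusted p = 0.00445, and 9.84 fold over the crosses, from xNZO (33.0 ± 14.8, n = 3) to xCAST (3.35), with adjusted p = 0.00730. Neither held in every fit, since without a trend in the variance the values were 0.0115 and 0.0152. Grb10 had the most even group means, with crosses from 201 to 217 and founders from 208 in 129 to 359 in WSB. The xWSB mean of 202 includes the library at an index of −0.90, which held Grb10 at 108, while the highest xWSB control was at 250.5.

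**Figure D4:**
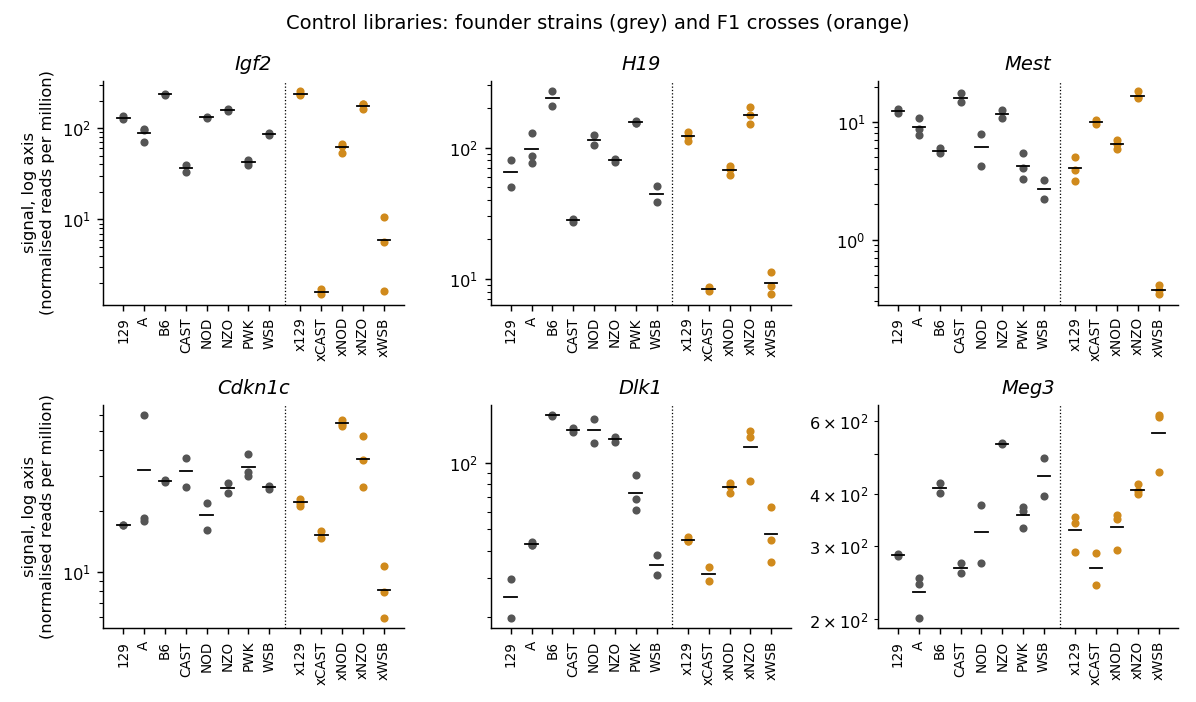
Levels of Igf2, H19, Mest, Cdkn1c, Dlk1 and Meg3 in each control library of the 8 strains and 5 crosses, on log axes, with bars at the group means and strains (grey) and crosses (orange) to be compared only within their set. Among the crosses Igf2 and H19 are lowest in xCAST and xWSB, and Mest in xWSB, while Meg3 is highest in xWSB.

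The span of the crosses was set beside the span of the 5 strains that fathered them, both as the log2 range of group means in controls. Igf2 spanned 2.12 in the fathers' strains and 7.12 in the crosses, Mest 2.55 and 5.14, and H19 2.04 and 4.37. Over all 12622 genes in both sets the medians were 0.62 and 0.51, and 39.8% of genes were wider in the crosses. Among the 10 genes, 7 were wider in the crosses, the others being Peg3 (2.00 and 3.15), Cdkn1c (0.86 and 2.77), Plagl1 (0.64 and 2.60) and Meg3 (0.99 and 1.07). Dlk1 (2.54 and 1.88), Zfp57 (1.12 and 0.76) and Grb10 (0.79 and 0.20) were narrower. In the crosses Igf2 lay at the 99.9th percentile of all genes, Mest at the 99.5th and H19 at the 99.0th. The difference between the 2 spans was not tested.

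**Figure D5:**
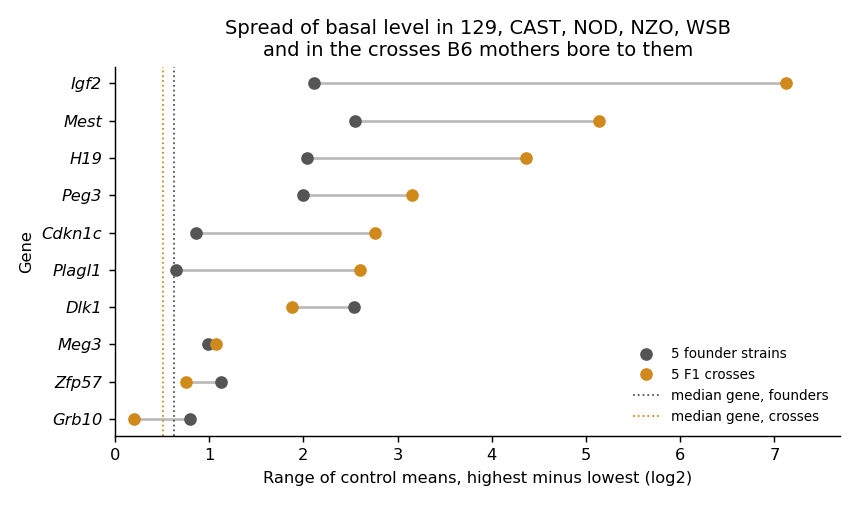
Range of group means in control libraries (log2) of each of the 10 genes over the 5 paternal strains and over the 5 crosses, beside the median over all 12622 genes. Igf2, Mest and H19 span 7.12, 5.14 and 4.37 in the crosses, where the median gene spans 0.51.

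Markers of other cell types differed between the same crosses. The summed level of the 4 chondro-osteogenic markers in controls was 642 ± 52.4 (SD, n = 2) in xCAST and 28.1 in xWSB, and lay between 89.0 and 128 in the other crosses. The span of this sum was mainly that of Col2a1, which ran from 0.714 to 758 over all F1 libraries. Sox9 ran from 12.0 to 26.3, Runx2 from 1.53 to 22.5 and Acan from 0 to 13.4. Desmin (Des), a muscle filament gene and the only myogenic marker listed, was at 5.33 in xCAST, 42.3 in xWSB, 44.7 in x129, 244 in xNOD and 290.0 in xNZO. The 4 proliferation markers summed to 97.4 ± 7.60 (n = 3) in xWSB and to between 253 and 467 in the others, and the 3 epithelial markers listed to 5.89 against 27.1 to 55.6. Of these markers Acan and Krt8 were at 0 in 1 F1 library each. In the founders, where Col2a1 ran from 34.0 to 615, the chondro-osteogenic sum was also highest in CAST, at 642, and lowest in NOD, at 86.9. The 3 adipogenic markers summed to 506 in control replicate 2 of WSB, where no other founder library was above 48.4, and to 290.1 in control replicate 3 of xNOD, where no other F1 library was above 17.5. Without these libraries 8 of 10 genes differed between strains and 8 of 10 between crosses, the latter without Peg3 (adjusted p = 0.0178). Cell composition, MEF preparation and genotype cannot be told apart in these levels.

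Among other factors that set or keep imprints, 18 of 20 listed genes were tested. In the founders Dnmt3a, a de novo DNA methyltransferase, fell to 0.576 of the control level (adjusted p = 2.01e-08), Tet1, which oxidises methylated cytosine, fell to 0.585 (adjusted p = 0.00160), and Ctcfl, a germ line relative of CTCF, rose 1.59 fold (adjusted p = 9.11e-05). In the crosses Dnmt3a fell to 0.626 and Ctcfl rose 2.30 fold, and no other gene of the list was called. Tet1 and Ctcfl were at low levels. The library medians of Tet1 in the founders were 1.00 in controls and 0.638 with TM. Those of Ctcfl were 3.02 and 5.56 in the founders and 1.14 and 2.31 in the crosses. Trim28, the partner of ZFP57, was at −0.07 and 0.00 on the log2 scale, and Zfp445, a zinc finger protein with a like role, at −0.07 and −0.30, none of them called. The list's median change was −0.09 and −0.16.

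Of the other paternally expressed imprinted genes, 16 of 25 were tested. In the founders 0 rose and 2 fell, Nnat to 0.487 and Peg12 to 0.652 of control, and in the crosses Mkrn3 rose 1.56 fold and Nnat fell to 0.584. Of the other maternally expressed ones, 19 of 29 were tested, with 1 falling in each set, Zim1 to 0.592 in the founders and Igf2r, the receptor that clears IGF2, to 0.645 in the crosses. The medians were −0.04 and −0.11 for the paternal and 0.01 and −0.07 for the maternal list. In the IGF signalling list 18 of 19 were tested. Stc2, a secreted glycoprotein that limits release of IGF from its binding proteins, rose 2.66 fold in the founders (adjusted p = 1.96e-16) and 2.99 fold in the crosses. In the crosses Igf1 fell to 0.656, and the receptor substrates Irs1 and Irs2 to 0.660 and 0.600, while in the founders 0 of the list fell. The list's median was −0.29 and −0.21. Genes of this list and of the lists above were fitted over all libraries only, including the xNOD TM libraries, both low in long transcripts. The part of the long-transcript index in their changes was not tested. Between control libraries, 15 of the 18 IGF genes differed by strain and 9 by cross, against 35.8% and 21.4% of all genes. The same counts were 4 and 2 of 18 for the factors that keep imprints, 6 and 7 of 16 for the paternal list and 9 and 5 of 19 for the maternal list.

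The patterns of the imprinted genes were not shared alike between the sets. Across all founder libraries the closest gene to Grb10 was Hipk3 (r = 0.957, and 0.949 over the F1 libraries), to Mest Cpped1 (0.839 and 0.828) and to Meg3 Dlg4 (0.819 and 0.841). For Igf2 it was Cmtm3 (0.901 in the founders and 0.511 in the crosses), for H19 Myo7a (0.831 and 0.00908), for Dlk1 Ly6a (0.890 and 0.353) and for Cdkn1c Rcn1 (0.843 and −0.394). Peg3 was closest to Pcdh7 (0.909 and 0.662) and Plagl1 to Man2a1 (0.901 and 0.418). Libraries of a group share a genotype and treatment, so these values describe the tables only.

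By the GENCODE annotation of GRCm38, H19 (ENSMUSG00000000031) lies at chr7:142575529-142578143, Igf2 (ENSMUSG00000048583) at chr7:142650766-142666816 and Cdkn1c (ENSMUSG00000037664) at chr7:143458339-143461050, all on the minus strand. Peg3 (ENSMUSG00000002265) lies at chr7:6703892-6730431 and Grb10 (ENSMUSG00000020176) at chr11:11930508-12038683, also on the minus strand. Dlk1 (ENSMUSG00000040856, chr12:109452823-109463336), Meg3 (ENSMUSG00000021268, chr12:109541001-109571726), Mest (ENSMUSG00000051855, chr6:30723547-30748465) and Plagl1 (ENSMUSG00000019817, chr10:13060504-13131694) lie on the plus strand. Some of them overlap other genes, and how reads of the shared bases were counted was not tested. The libraries did not keep strand, so reads from opposite strands cannot be told apart. Igf2 shares 62.8% of its exon bases with Gm49394 on the same strand. Cdkn1c shares 30.7% with the antisense Gm44732, Mest 23.1% with Copg2 and Meg3 6.79% with Gm26906, all on the opposite strand. The longest transcripts are those of Meg3, with 14548 bases, and of Peg3, with 8694.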

How the data were processed

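Libraries were made with a kit that does not keep strand and read from 1 end. Per the labels and the submitters' processing notes, the authors checked and trimmed reads with FastQC and Trimmomatic and aligned them with TopHat 1.4.1, with GRCm38 as the build. The paper gives strain-specific mouse assemblies as the alignment reference, and an effect of the reference on strain levels was not tested. The authors scaled counts with edgeR's TMM method and left out libraries that stood apart in a principal component analysis. The deposited values are a signal called FPKM. Tested on the files, in 66 of 68 libraries every gene's value was a whole number of steps of 1 size (within 0.05 of a whole read), so they are library-scaled and not divided by length. The 3 lines that name no gene (15.5% to 24.1% of the F1 signal) were left out.

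Here log2(value + 0.1) was fitted with limma 3.58.1 (R 4.3.3, trend in the variance, Benjamini-Hochberg adjustment over all genes), separately in each set, for genes at 0.5 or more in at least 2 libraries. TM calls needed adjusted p below 0.01 and 1.5 fold, and F tests for basal level and interaction adjusted p below 0.01, all two-sided. A log2 change on this scale understates that of low genes. Fits across all genes were tested on simulated data with known changes. In those 66 libraries 100% of values came out whole; the reads were tested with edgeR 4.0.16 as an alternative, which left out the other 2 libraries and called 774 genes up and 665 down in the founders and 710 and 682 in the crosses (limma 797, 714, 634 and 709), along with other pseudocounts, filters, scalings, thresholds, samples and a replicate block. Chosen after seeing the data were the fits without libraries whose long-transcript index lay under −0.4, those with the index as covariate, and the motif searches. The members and lists were chosen with earlier results of these data known. Of the members, all 10 are named, and beside them genes of the lists that were called and the genes with the highest correlation. The design had assumed FPKM; the test on the log scale was kept. Replicate numbers were not treated as pairs in the main fits (limits of the results are in the closing section). Depth limits Igf2 in xCAST and Mest in xWSB.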

Additional observations from a re-analysis of the deposited data

How the results depend on the processing

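No called result changed direction under any alternative run. Igf2 in the crosses, not called, went from −0.16 to 0.09 without the libraries low in long transcripts, and Plagl1 in the crosses, also not called, from −0.02 to 0.08 without them and to 0.20 with the index as covariate. Calls within single strains depended most on the setting: the 2 founder calls (Peg3 and Grb10 in WSB) became 0 without a trend in the variance and 0 in 1 fit over all libraries. With the long-transcript index as covariate both were lost and 3 other tests passed, Peg3 in 129 (−0.78), Mest in CAST (−0.76) and Mest in NZO (−0.71). The 4 F1 calls within crosses (Zfp57) became 7 at an adjusted p limit of 0.05, 5 without the libraries low in long transcripts (losing xNOD, which then had no TM library, and adding xWSB, for Zfp57 and for Cdkn1c at 1.04, adjusted p = 0.00111) and 6 with the index as covariate, which lost none of the 4 and added Mest in xCAST (−1.03) and Cdkn1c in xNOD (1.04). A single fit over all F1 libraries gave 6, adding Zfp57 in xWSB (adjusted p = 7.59e-08) and Grb10 in xNOD (−1.76, adjusted p = 0.00737), a cross whose TM libraries were both low in long transcripts. The causes were not tested. Leaving out each library in turn gave 3 to 8 calls within crosses, 1 to 5 within strains, 7 to 9 basal calls in the crosses, 6 to 9 in the founders, 1 to 3 for the mean TM change in the crosses, 0 to 1 in the founders, and 0 for both interactions. Without 129 TM replicate 3 Peg3 was called in the founders (−0.69). In the crosses Grb10 and Mest were called beside Zfp57 without xNOD TM replicate 2, and 2 genes were called without x129 control 3, xCAST TM 2, xNZO control 1, xWSB control 1 or any xWSB TM library. Calls within strains rose to 5 without NOD control 3 and 4 without CAST control 3, and fell to 1 without either WSB control; calls within crosses rose to 7 and 8 without xNOD TM 1 and TM 2. Where 1 library remained in an arm it was assumed to vary like the others. The basal calls of Peg3 were lost in 9 F1 and 6 founder fits with 1 library left out, those of Plagl1 in 5 founder fits and those of Zfp57 in 4 F1 fits. Igf2 in xCAST rests on 30 reads per control library and Mest in xWSB on 3 to 5, which limits both levels.

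Replicate numbers were checked for pairing. Of 29 pairs of control and TM libraries with the same number, 7 had correlated deviations over 0.1 (from −0.53 to 0.312, median 0.0204). The numbers were therefore not treated as pairs in the main fits. The xWSB pairs had 0.26, 0.16 and 0.12 and the NZO pairs 0.19 and 0.22, and pairing within single genotypes was not tested. With a replicate block, the mean TM change was called for 2 genes in the crosses instead of 1 (Grb10 added at −0.62, adjusted p = 0.00264) and for 0 in the founders, with 6 calls within crosses and 2 within strains.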
